A study of Homo sapiens with 9 samples.

Results

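The 100 genes described here carry the symbols of protein subunits of the 5 complexes of oxidative phosphorylation, complexes I to V. They were taken from the 58884 genes of the deposited count table by their symbols (the NDUF, SDH, UQCR, CYC1, COX4 to COX8 and ATP5 names of the nuclear genome, without pseudogenes, and the protein genes of the mitochondrial genome). This pattern of symbols uses no measured values, but it was chosen with earlier results of these data known. It goes by name alone, so it can miss subunits with other symbols and take in genes that are not subunits proper. Of the 100, 13 are encoded by the mitochondrial genome and 87 by the nucleus. Complex I holds 43 of them, complex II 4, complex III 11, complex IV 21 and complex V 21.

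The libraries come from MDA-MB-231, a claudin-low human breast cancer line, and from sub-populations of it that had been selected in mice for spread to an organ. The 3 groups are the parental line (Par), the lung metastatic LM2 cells and the brain metastatic BrM2 cells, with 3 libraries each. All cells were untreated monolayers, grown for 3 days in DMEM with 10% serum, and the study's methods say that the replicates were harvested at different passages. Each sub-population is a single selected derivative of 1 cell line, so the p-values below cover no spread between independently selected lines.

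The complexes sit in the inner mitochondrial membrane. Complex I (NADH dehydrogenase) and complex II (succinate dehydrogenase) pass electrons to ubiquinone, complex III (cytochrome bc1) passes them to cytochrome c, and complex IV (cytochrome c oxidase) passes them to oxygen. The proton gradient that complexes I, III and IV build drives complex V, the ATP synthase. Complex II is made of nuclear gene products only, whereas the other complexes join nuclear subunits to core subunits read from the mitochondrial genome.

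Counts on genes came to between 14371858 and 24511786 per library, the lowest in BrM2 replicate 1. Of the cancer line markers, VIM (636 to 1880 CPM), CD44 (499 to 849), KRT8 (306 to 1180), EGFR (292 to 718) and KRT18 (269 to 713) were high in every library. CPM is the count scaled to the library's total and TMM factor. KRT19 ranged from 29.1 to 284 CPM, with its lowest counts in LM2 (1467, 849 and 760 reads). EPCAM was low, at 2.73 to 7.94 CPM. The defining markers of blood cells (PTPRC, CD68), of lung epithelium (SFTPC, SFTPB) and of endothelium (CDH5) stood at no more than 0.265 CPM, and 3 counts correspond to 0.115 to 0.221 CPM. Other such markers were measured at higher levels, PECAM1 of endothelium at 2.08 to 7.19 CPM, GFAP of astrocytes at 5.52 to 21.3, PDGFRB of pericytes at 3.88 to 31.2 and SNAP25 of neurons at 0.369 to 7.55. The summed CPM of 10 markers of other cell types lay between 45.3 and 54.3 in Par, between 24.9 and 40.1 in LM2 and between 17.1 and 23.4 in BrM2. CDH1, an epithelial cadherin, was near 0 (0.144 to 1.94 CPM). In bulk RNA, fewer cells that express a gene and less RNA per cell cannot be told apart.

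Replicate 1 stood apart from replicates 2 and 3 in all 3 lines. The tested subunits were higher in replicate 1 than in the mean of the other 2 by a median log2 difference of 0.45 in Par, 0.53 in LM2 and 0.50 in BrM2. Across 77 nuclear subunits this difference followed the GC content of the transcript (Spearman 0.57 in Par, 0.70 in LM2, 0.72 in BrM2; a description across genes of the same libraries). The edgeR fit with the lines as its only factor (the fit without the block) and a fit that also takes up the replicate number (the fit with the block) are therefore both given. Without the block, the p-values cover the spread between the replicates of a line. With it, they cover only the spread left after what libraries of the same number share is taken out. The common dispersion was 0.11 without the block and 0.021 with it.

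Most subunits differed little between the lines, and the complexes did not move as wholes. After a filter on low counts 91 of the 100 could be tested, 78 nuclear and all 13 mitochondrial. In edgeR's quasi-likelihood test at an adjusted p of 0.05, without the block, 1 of the 91 passed in LM2 against Par, where 8.69% of all genes tested passed. In BrM2 against Par 1 of 91 passed, where 13.3% of all genes did, and in BrM2 against LM2 4 of 91 passed, where 8.1% did. With the block, 20 of 91 (22.0%) passed in LM2 against Par, where 34.5% of all genes did. Of these 9 were higher and 11 lower, where 15.5% of all genes were higher and 19.1% lower. Likewise 29 (31.9%) passed in BrM2 against Par, where 42.7% of all genes did, with 10 higher and 19 lower against 19.5% and 23.2% of all genes. Between BrM2 and LM2 27 (29.7%) passed, where 37.5% of all genes did, with 10 higher and 17 lower against 17.8% and 19.7% of all genes. Without replicate 1 of any line and without the block, 17, 25 and 21 of 91 passed in the same order, where 33.1%, 40.4% and 32.6% of all genes did. In each of these fits the share of subunits lay below that of all genes.

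COX7B2 had by far the greatest difference of any subunit. It is a paralog of COX7B, a small nuclear subunit of complex IV, and is known for its expression in testis. COX7B2 (ENSG00000170516) lies on chr4:46734827-46909245 and COX7B (ENSG00000131174) on chrX:77899468-77907376 (GRCh38.p14, RefSeq). The 250 bases before the start of each gene are shown because they set the start of the paralog that differed beside that of the paralog that was present in all lines. The first is chr4:46909246-46909495 on the minus strand and the second chrX:77899218-77899467 on the plus strand, both from RefSeq on GRCh38.p14, 5′ to 3′. Capitals mark a CCAAT box (CCAAT, or ATTGG on the other strand) in the first and a pair of overlapping TATA boxes (TATAAA, or TTTATA) in the second.
COX7B2: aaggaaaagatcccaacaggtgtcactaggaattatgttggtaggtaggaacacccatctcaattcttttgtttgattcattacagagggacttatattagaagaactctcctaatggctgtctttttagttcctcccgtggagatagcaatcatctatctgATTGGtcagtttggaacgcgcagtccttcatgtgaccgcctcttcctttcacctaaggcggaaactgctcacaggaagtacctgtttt
COX7B: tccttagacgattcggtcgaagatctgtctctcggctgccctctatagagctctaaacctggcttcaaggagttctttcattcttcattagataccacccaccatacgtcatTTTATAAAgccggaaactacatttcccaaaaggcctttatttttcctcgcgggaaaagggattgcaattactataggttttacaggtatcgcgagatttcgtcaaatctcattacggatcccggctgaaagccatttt

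The COX7B2 stretch held 5 CpG dinucleotides and the COX7B stretch 13, at the same GC content of 43.2%. Neither held the palindromic motif of NRF1, a factor known for its sites in respiratory chain genes, or the ETS motif CCGGAAG, searched on both strands. Among the promoters of 69 nuclear subunits that could be matched, 15 (21.7%) held the NRF1 motif and 17 (24.6%) the ETS motif in these 250 bases. Among all 27305 promoters of the RefSeq table the shares were 5.53% and 8.82%, and among 9765 tested genes matched by symbol they were 10.7% and 16.3%. A CCAAT box stood in 33.3% of the 69 and in 33.0% of all promoters. A TATA box stood in 10.1% and 11.1%, and the YY1 motif AAGATGGC in 1.45% and 1.37%. A match is a run of letters and says nothing of binding in these cells.

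COX7B2 had 342, 574 and 435 reads in the 3 BrM2 libraries, 8, 7 and 5 in Par, and 2, 0 and 1 in LM2. The BrM2 libraries thus stood far above all others, and the LM2 libraries below those of Par. The level was 23.8 ± 2.57 CPM in BrM2 and 0.319 ± 0.113 CPM in Par (SD, n = 3). The log2 fold change of BrM2 against Par was 6.23 ± 0.44 (SE, adjusted p = 8.6e-05, edgeR). LM2 was at the floor of 3 counts per library, so BrM2 was at least 185-fold higher than LM2 (adjusted p = 7.3e-05) and LM2 at least 2.48-fold lower than Par (adjusted p = 0.034). The difference between LM2 and Par rests on 3 against 20 reads in all, and 8 of 12 fits that left out a library or a replicate number lost the call. Each of the 12 kept the calls of BrM2 against Par and against LM2. No 50-base stretch of COX7B2 was shared with another gene and no other gene overlapped its exons in the annotation used.

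COX7B had 2236, 2277 and 2722 reads in Par, 2540, 2937 and 2424 in LM2, and 1364, 2073 and 1784 in BrM2. Its level was 112 ± 5.39 CPM in Par, 113 ± 17.7 in LM2 and 92.6 ± 7.65 in BrM2. The BrM2 libraries lay below those of Par, and the difference of BrM2 against Par was a log2 of -0.27 ± 0.18 that did not pass (adjusted p = 0.42, or 0.072 with the block). Even in BrM2, COX7B2 reads were fewer than COX7B reads in each library, as the plot of the pair shows.

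**Figure D1:**
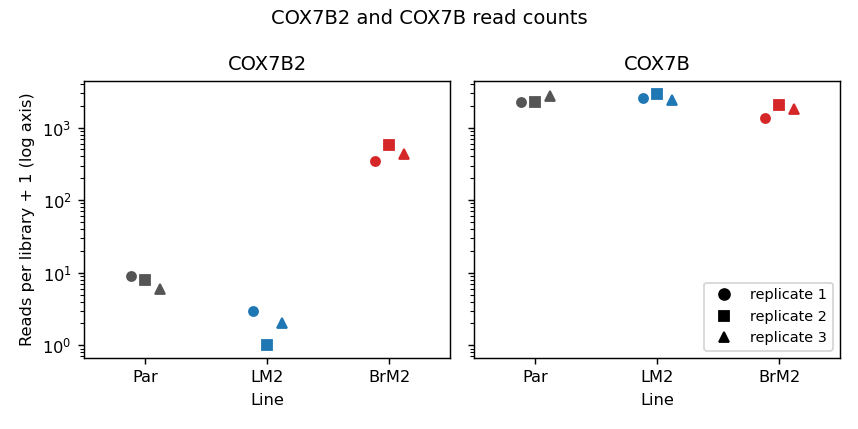
Reads per library plus 1, on a log axis, for COX7B2 (left) and COX7B (right) in the 3 lines; each point is 1 library and the marker gives the replicate number. COX7B2 went from 0 to 8 reads in Par and LM2 to 342 to 574 in BrM2, whereas COX7B stayed between 1364 and 2937 reads in all 9 libraries.

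Among the other paralog pairs, the isoform known from most tissues was measured in all libraries and the tissue-restricted one was at or near 0. COX4I2, the isoform known from lung, COX6A2, known from heart and skeletal muscle, and COX8C, known from testis, had 0 reads in all 9 libraries, which allows up to 0.115 to 0.221 CPM per library. COX6B2 had 0 to 4 reads per library, COX7A1 1 to 11, NDUFA4L2 (induced by hypoxia in many cells) 0 to 4 and ATP5MGL 0 to 5, and no fold is given for any of them. COX4I1, the partner of COX4I2, is described with complex IV. UQCRH and UQCRHL, a retrocopy that shares 53.7% of its 50-base stretches with UQCRH, cannot be told apart with certainty, and UQCRHL (3.88 to 13.5 CPM) passed no test.

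Of the 13 mitochondrial mRNAs, MT-ND5 and MT-ND6 were lower in BrM2 than in LM2 without the block, and 6 of 13 were lower with it, where 19.7% of all genes passed as lower. They encode 7 core subunits of complex I (MT-ND1 to MT-ND6 and MT-ND4L), cytochrome b of complex III (MT-CYB), 3 core subunits of complex IV (MT-CO1 to MT-CO3) and 2 subunits of complex V (MT-ATP6 and MT-ATP8). All but MT-ND6 are read from the same strand as parts of long transcripts. Because the strand that was counted is not given in the sources used here, reads of MT-ND6 and of the strand opposite to it cannot be told apart.

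Together the 13 mRNAs took 5.77%, 4.33% and 5.31% of gene counts in the Par libraries, 7.53%, 5.05% and 4.46% in LM2 and 5.12%, 4.36% and 3.98% in BrM2. The ranges of the 3 lines overlapped, and the highest share was that of LM2 replicate 1. The 87 nuclear subunit genes took 0.860%, 0.705% and 0.671% in Par, 0.882%, 0.714% and 0.668% in LM2 and 0.915%, 0.756% and 0.741% in BrM2. In each replicate number BrM2 had the highest nuclear share. The ratio of mitochondrial to nuclear subunit counts was 6.92 ± 0.903 in Par, 7.42 ± 0.979 in LM2 and 5.57 ± 0.196 in BrM2 (SD, n = 3), and the BrM2 libraries (5.37 to 5.76) lay below the other 6 (6.14 to 8.53). No test was fixed for this ratio.

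Per kilobase of gene, MT-CO2 (13900 ± 3810 CPM per kb in Par), MT-CO3 (9420 ± 2330) and MT-CO1 (8420 ± 1600) had the highest levels, and these ranges do not tell MT-CO3 from MT-CO1. MT-ATP6 (5050 ± 999) and MT-ND4 (4260 ± 486) followed, again within each other's spread. MT-ND2 (2740 ± 496), MT-ND4L (2080 ± 310), MT-CYB (1930 ± 455), MT-ND5 (1870 ± 157), MT-ND1 (1840 ± 614) and MT-ND3 (1510 ± 514) lay lower, and the SDs of neighbours in this order overlapped. MT-ND6 (949 ± 114) and the short MT-ATP8 (430 ± 158) were lowest. Nuclear copies share many of these sequences: 49.5% of the 50-base stretches of MT-CO1, 46.7% of MT-ATP6 and 43.6% of MT-ND2 also occur in another gene, but 4.76% of MT-ND5 and 1.19% of MT-CYB.

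MT-ND5 was measured at 3710, 3200 and 3240 CPM in Par, 5730, 4530 and 4000 CPM in LM2, and 2590, 2660 and 2560 CPM in BrM2. MT-ND6, which lies next to it on the other strand, was measured at 560, 441 and 493 CPM in Par, 796, 637 and 583 CPM in LM2, and 396, 371 and 340 CPM in BrM2. For both genes the libraries of the 3 lines did not overlap, with LM2 highest and BrM2 lowest. MT-CYB had 2790, 1790 and 2050 CPM in Par, 4340, 2730 and 2650 CPM in LM2, and 2000, 1620 and 1230 CPM in BrM2, where only LM2 and BrM2 did not overlap. The libraries of 14 of 91 subunits did not overlap in BrM2 against LM2, where those of 23.1% of all genes tested did not. In LM2 against Par this held for 11 of 91 against 25.2% of all genes, and in BrM2 against Par for 17 of 91 against 31.3%.

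In BrM2 against LM2 the log2 fold change was -0.87 ± 0.18 for MT-ND5 and -0.86 ± 0.18 for MT-ND6 (adjusted p = 0.020 for each, edgeR without the block; 0.00045 and 0.00025 with it). Of 12 fits without the block that left out a library or a replicate number, 6 lost the call of MT-ND5 (adjusted p 0.0021 to 0.47) and 5 that of MT-ND6 (0.0016 to 0.44). The log2 fold changes in these 12 fits lay between -0.98 and -0.69 for MT-ND5 and between -0.96 and -0.72 for MT-ND6. For MT-CYB the log2 fold change was -0.99 ± 0.13 with the block and did not pass without it (adjusted p = 0.00025 and 0.069). In BrM2 against LM2 the calls of MT-ND5, MT-ND6 and MT-CYB passed in each of 12 further fits with the block. These fits changed the scaling, library sizes or tool, or left out a single library, but left out no replicate number. With the block, these genes also passed in LM2 against Par (MT-ND5 0.48 ± 0.12, MT-ND6 0.43 ± 0.11, MT-CYB 0.54 ± 0.13, adjusted p = 0.012, 0.014 and 0.0090). They passed in BrM2 against Par too (-0.37 ± 0.12, -0.43 ± 0.11 and -0.45 ± 0.13, adjusted p = 0.033, 0.011 and 0.017). Of the 12 further fits with the block, 11, 10 and 12 kept the calls in LM2 against Par. In BrM2 against Par 6, 10 and 9 did. Without the block, no mitochondrial gene passed in either of these comparisons, where 2 and 1 of the 13 had an unadjusted p under 0.05 against 2640 and 3265 of all 13055 genes.

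Among the other 10 mitochondrial mRNAs, with the block MT-ND3 (-0.59 ± 0.14, adjusted p = 0.0065), MT-ATP6 (-0.66 ± 0.17, adjusted p = 0.013) and MT-ATP8 (-0.67 ± 0.17, adjusted p = 0.0091) were lower in BrM2 than in LM2, and MT-ATP8 and MT-ND3 also lower than in Par (-0.62 ± 0.17 and -0.45 ± 0.14, adjusted p = 0.012 and 0.021). MT-ND1, MT-ND2, MT-ND4, MT-ND4L and MT-CO1 to MT-CO3 passed in no comparison, with or without the block. All 13 had a fitted log2 fold change below 0 in BrM2 against LM2, though MT-CO2 was at -0.02 (adjusted p = 0.96 with the block) and was higher in BrM2 in replicate 3. The Spearman correlation of gene start with the log2 fold change was -0.59 over the 13 genes in this comparison, -0.46 in BrM2 against Par and 0.38 in LM2 against Par, values from shared libraries and shared transcripts that are given as a description.

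Replicate 1 weighed on the size of these differences. The median of the 13 log2 fold changes was 0.28 in LM2 against Par, where the median of all genes was 0.01, but -0.11 without LM2 replicate 1. Between BrM2 and LM2 it was -0.56 against -0.03 for all genes, and -0.10 without LM2 replicate 1. In BrM2 against Par it was -0.25, where all genes had -0.02. A fit without LM2 replicate 1 alone keeps replicate 1 of Par and BrM2. There too the 13 were higher than in the mean of replicates 2 and 3, by a median log2 difference of 0.42 and 0.51. Without replicate 1 of all lines the medians were 0.01 in LM2 against Par, -0.29 in BrM2 against Par and -0.2 in BrM2 against LM2. In that fit MT-ND5, MT-ND6, MT-CYB and MT-ND3 passed in BrM2 against LM2 and 11 of 13 values were below 0. The mitochondrial ribosomal RNAs MT-RNR1 and MT-RNR2, for which the library kit does not select, passed in no comparison.

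**Figure D2:**
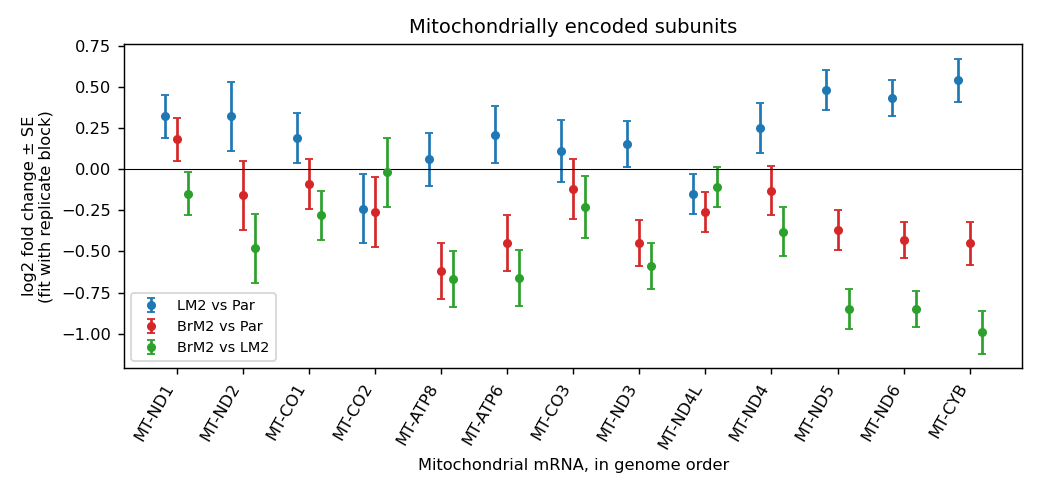
Log2 fold change ± SE of the 13 mitochondrial mRNAs in the fit with the replicate block, in the order of the genes along the mitochondrial genome, for LM2 against Par (blue), BrM2 against Par (red) and BrM2 against LM2 (green). The comparisons diverge at MT-ND5, MT-ND6 and MT-CYB, at 0.43 to 0.54 in LM2 and -0.45 to -0.37 in BrM2 against Par.

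Among nuclear subunits of complex I, 6 were lower in BrM2 than in Par with the block and 2 higher, of 34 tested, where 19.5% of all genes passed as higher and 23.2% as lower. Accessory subunits surround the catalytic core of the complex and take part in its assembly and stability. The 6 lower ones were among the 28 accessory subunits tested (NDUFA5, NDUFA8, NDUFB1, NDUFB2, NDUFB11 and NDUFC2), as was NDUFB9, which was higher. Of 6 nuclear core subunits only NDUFS1, which carries iron-sulphur clusters, differed (0.44, higher). The difference between core and accessory subunits was not tested. Without the block, no nuclear subunit of complex I passed in BrM2 against Par, and 10 of all 91 subunits (11.0%) had an unadjusted p under 0.05, against 3265 of all 13055 genes.

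NDUFB2 was measured at 48.8, 25.1 and 25.3 CPM in Par, 28.1, 16.0 and 16.6 in LM2 and 19.4, 14.8 and 9.06 in BrM2. Every BrM2 library was below every Par library, and LM2 lay between them in each replicate number. The log2 fold change of BrM2 against Par was -1.20 ± 0.39 without the block (adjusted p = 0.084) and -1.18 ± 0.17 with it (adjusted p = 0.00024), and that of LM2 against Par was -0.69 ± 0.16 with it (adjusted p = 0.0076). A gene on the opposite strand overlaps 24.3% of its transcript. NDUFB11 was measured at 123, 64.5 and 48.9 CPM in Par, 150, 61.9 and 55.5 in LM2 and 67.8, 33.5 and 29.2 in BrM2. Its libraries overlap between lines because replicate 1 is high in each, but within each replicate number BrM2 was the lowest (-0.85 ± 0.12 against Par, adjusted p = 0.00020 with the block; 0.37 without).

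NDUFC2, an accessory subunit of the membrane arm, was the only nuclear complex I gene that passed without the block. It had 13.6, 10.3 and 11.9 CPM in Par, 17.1, 12.4 and 13.8 in LM2 and 7.97, 6.75 and 6.33 in BrM2, so that BrM2 lay below both other lines with no overlap. In BrM2 against LM2 the log2 fold change was -1.04 ± 0.22 (adjusted p = 0.020), and against Par -0.77 ± 0.22 (adjusted p = 0.051, or 0.0018 with the block). The call against LM2 was lost in 5 of 12 fits that left out a library or a replicate number (adjusted p 0.0041 to 0.51) and without the filter on low counts (0.066). Over those 12 fits the log2 fold change lay between -1.14 and -0.9. With the block the call passed in 12 of 12 further fits, of which none left out a whole replicate number. A read-through gene, NDUFC2-KCTD14, shares 19.4% of its 50-base stretches. NDUFB9 was higher in both sub-populations with the block (0.61 ± 0.13 in LM2 and 0.66 ± 0.13 in BrM2, adjusted p = 0.0053 and 0.0025), at 16.7 ± 7.32 CPM in Par, 25.4 ± 10.9 in LM2 and 26.0 ± 9.5 in BrM2.

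In LM2 against Par, NDUFB8 and NDUFS8 had the largest falls of complex I. NDUFS8, a core subunit with iron-sulphur clusters, was at 87.0, 73.3 and 37.9 CPM in Par and 59.7, 28.0 and 22.6 in LM2 (-0.94 ± 0.26, adjusted p = 0.018 with the block; 0.50 without). NDUFB8 was called from 15 to 53 reads per library (-0.97 ± 0.32, adjusted p = 0.036 with the block). Over 72.0% of its transcript another gene overlaps it on the same strand. Of 12 further fits with the block, 8 kept the call of NDUFS8 and 6 that of NDUFB8, which DESeq2 with the block did not call.

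Of the 4 subunits of complex II, SDHB differed in BrM2 and SDHC in 1 comparison, both with the block. SDHB, its iron-sulphur subunit, was measured at 96.6, 75.2 and 66.7 CPM in Par, 116, 77.4 and 78.8 in LM2 and 145, 105 and 110 in BrM2. BrM2 was above Par in every library, by a log2 of 0.59 ± 0.11 with the block (adjusted p = 0.0014, or 0.16 without), and it was also above LM2 (0.41, adjusted p = 0.013 with the block). SDHC, a membrane anchor, was lower in BrM2 than in LM2 by the block only (-0.33 ± 0.12, adjusted p = 0.048), and 6 of 12 further fits with the block did not call it. SDHD, the other anchor (64.0 ± 7.32, 71.3 ± 17.2 and 54.4 ± 12.8 CPM in Par, LM2 and BrM2), and SDHA, the flavoprotein (6.46 ± 2.19, 4.48 ± 0.162 and 4.37 ± 1.93 CPM), passed in no comparison. SDHA is overlapped over 69.4% of its transcript on the same strand.

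In complex III, 3 of 10 nuclear subunits were higher and 1 lower in BrM2 than in Par with the block, where 19.5% of all genes passed as higher and 23.2% as lower. The higher ones were CYC1 (cytochrome c1; 0.69 ± 0.18, adjusted p = 0.0092), UQCRC2 (a core protein; 0.49, adjusted p = 0.0033) and UQCRH (the hinge protein; 0.39 ± 0.11, adjusted p = 0.017), and UQCRQ was lower (-0.43, adjusted p = 0.025). CYC1 had 354, 205 and 161 CPM in Par, 489, 169 and 144 in LM2 and 552, 272 and 324 in BrM2. Within each replicate number BrM2 was highest, but replicate 1 of Par exceeded replicates 2 and 3 of BrM2. In LM2 against Par, UQCRC2 (0.43, adjusted p = 0.0086) and UQCRFS1, the Rieske protein (0.42, adjusted p = 0.019), were higher with the block.

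In complex IV, beside COX7B2, COX4I1 was higher in BrM2 and the 2 subunits COX5A and COX5B went in opposite directions in LM2. COX4I1, a regulatory subunit, was measured at 275, 183 and 167 CPM in Par, 394, 196 and 160 in LM2 and 401, 284 and 288 in BrM2. BrM2 was above Par in every library (0.66 ± 0.15, adjusted p = 0.0043 with the block; 0.33 without). COX5A had 95.5, 51.1 and 60.1 CPM in Par, 172, 80.2 and 85.7 in LM2 and 88.6, 70.8 and 50.8 in BrM2, and was higher in LM2 than in Par (0.67 ± 0.16, adjusted p = 0.0073 with the block). COX5B had 62.5, 49.3 and 42.4 CPM in Par, 43.5, 21.5 and 23.9 in LM2 and 73.2, 31.8 and 46.9 in BrM2, and was lower in LM2 (-0.86 ± 0.17, adjusted p = 0.0028 with the block). In each replicate number LM2 had the highest COX5A and the lowest COX5B.

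NDUFA4, now known as a complex IV subunit despite its name, was also lower in LM2. It stood at 155, 107 and 108 CPM in Par, 104, 82.7 and 72.8 in LM2 and 152, 139 and 106 in BrM2, with LM2 below both other lines in all libraries (-0.51 ± 0.12 against Par and, for BrM2 against LM2, 0.62 ± 0.12, adjusted p = 0.0068 and 0.0023 with the block). COX7A2 was lower in both sub-populations with the block (-0.42 ± 0.13 in LM2 and -0.47 ± 0.13 in BrM2, adjusted p = 0.026 and 0.013). COX8A was lower in BrM2 only with the block (-0.71 ± 0.20, adjusted p = 0.014), and without Par replicate 1 the fit without the block gave 0.14. It had 147, 48.2 and 42.0 CPM in Par and 94.3, 37.4 and 18.1 in BrM2, lower in BrM2 in each replicate number. COX6A1 and COX6B1 passed in no comparison.

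In complex V, with the block, 5 of 18 nuclear subunits were lower in BrM2 than in Par (ATP5F1E, ATP5ME, ATP5MF, ATP5MG and ATP5MPL) and 2 higher (ATP5F1A, subunit alpha of the catalytic head, and ATP5MC1), where 19.5% of all genes passed as higher and 23.2% as lower. The calls of ATP5ME and ATP5F1E were lost in 9 and 8 of 12 further fits with the block. ATP5MPL, a small protein bound to the membrane part, was measured at 81.5, 50.5 and 50.6 CPM in Par, 74.0, 53.6 and 50.9 in LM2 and 40.9, 31.3 and 24.6 in BrM2. BrM2 lay below both other lines in every library (-0.91 ± 0.12 against Par and -0.89 ± 0.12 against LM2, adjusted p = 0.00017 and 0.00028 with the block; 0.071 and 0.11 without). ATP5MF, subunit f, fell from 24.7 ± 15.1 CPM in Par to 12.6 ± 6.07 in BrM2 (-0.93 ± 0.17, adjusted p = 0.0014 with the block), and a read-through gene overlaps 37.2% of its transcript. ATP5ME was called on a mean of 33.4 reads per library, with a gene on the opposite strand over at least 35% of its transcript.

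ATP5MC1, ATP5MC2 and ATP5MC3 encode the same mature subunit c, which forms the rotor ring. ATP5MC1 was higher in both sub-populations with the block (0.69 ± 0.17 in LM2 and 0.57 ± 0.17 in BrM2, adjusted p = 0.011 and 0.022), at 91.7 ± 54.2 CPM in Par, 147 ± 84.8 in LM2 and 125 ± 38.5 in BrM2. ATP5MC2 was higher in LM2 (0.45 ± 0.12, adjusted p = 0.013). ATP5MC3, at 208 ± 56.5, 206 ± 85.5 and 194 ± 55.5 CPM, passed in no comparison. ATP5MD, another small membrane subunit, was lower in LM2 (-0.64, adjusted p = 0.0027 with the block).

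Medians per complex stayed near 0. With the block they were 0.01, 0.13, 0.26, -0.05 and -0.04 for complexes I to V in LM2 against Par, where all genes had -0.02. In BrM2 against Par they were -0.16, -0.22, 0.01, -0.09 and -0.16, where all genes had -0.04. In BrM2 against LM2 they were -0.09, -0.23, -0.26, -0.05 and -0.16, where all genes had -0.02. The nuclear subunits of all complexes together had medians of -0.04, -0.08 and -0.05 in the 3 comparisons, and the mitochondrial ones 0.21, -0.26 and -0.48.

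**Figure D3:**
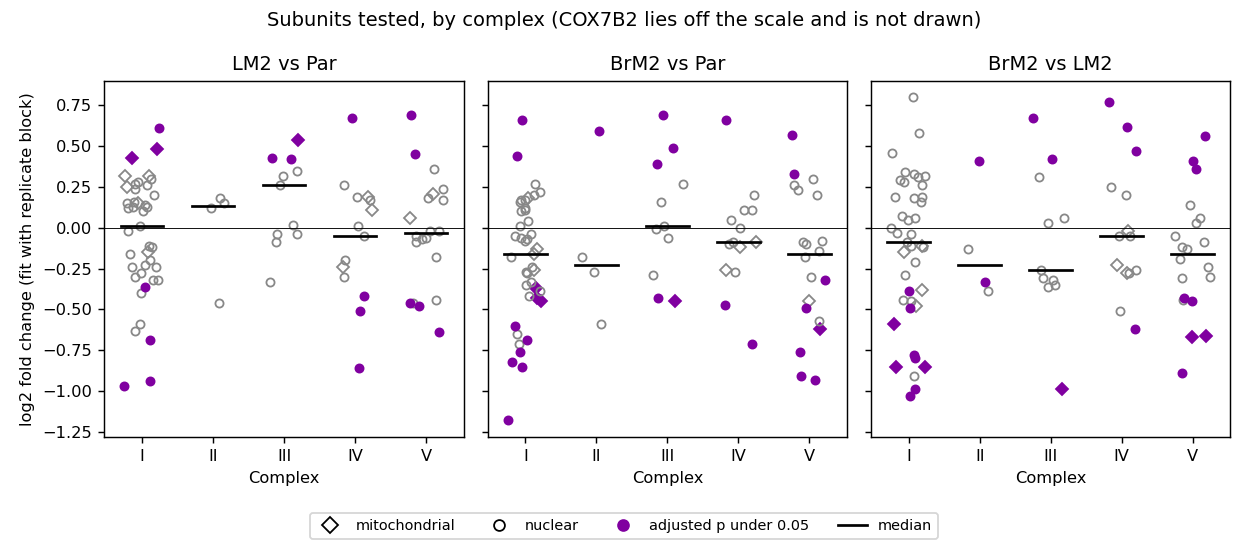
Log2 fold change of each tested subunit with the replicate block, by complex (x axis) and comparison (panels); diamonds are mitochondrial and circles nuclear genes, filled where the adjusted p was under 0.05, and bars are medians. The medians lay between -0.26 and 0.26, and filled points stood above and below 0 in most complexes; COX7B2 is off the scale.

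Of the 29 subunits past the threshold with the block in BrM2 against Par, 14 also passed in each of 12 further fits with the block (another scaling, library sizes without mitochondrial genes, DESeq2, and each of 9 libraries left out). Beside COX7B2 these were the 13 genes of the plot by library, among them NDUFA8 (-0.82) and NDUFB1 (-0.69), a choice made after values were seen. The count of 29 was 14 without Par replicate 3 and 14 without BrM2 replicate 3. In LM2 against Par the count of 20 was 11 without Par replicate 3 and 11 without LM2 replicate 2. Between BrM2 and LM2 the count of 27 was 15 without BrM2 replicate 3, 16 without LM2 replicate 2, 17 without LM2 replicate 3 and 44 without BrM2 replicate 2. In LM2 against Par 4 of 20 calls passed in every such fit (MT-CYB, COX5B, COX7B2 and ATP5MD) and in BrM2 against LM2 13 of 27.

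**Figure D4:**
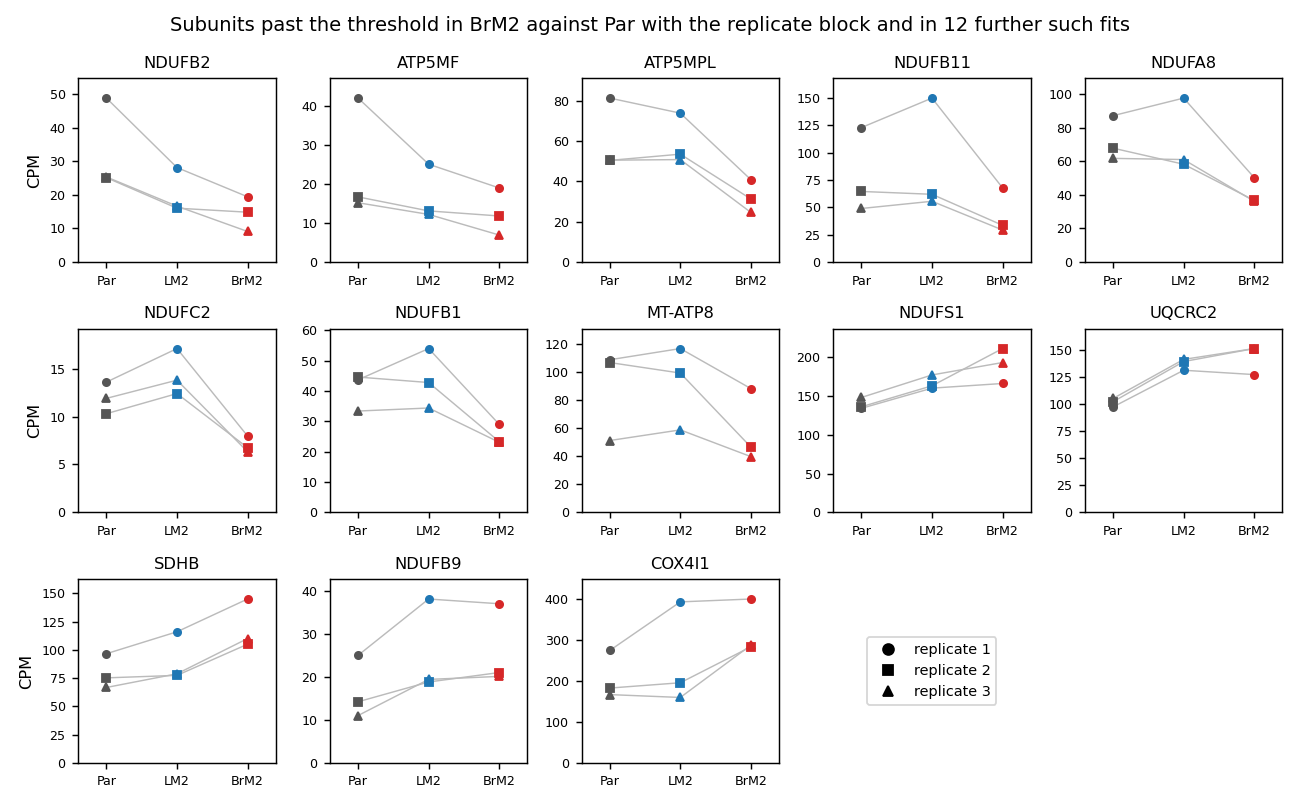
CPM (y axis, from 0) of 13 subunits in the 3 lines, 1 panel per gene ordered by fold change; each point is a library, markers give the replicate number and lines join libraries of the same number. From NDUFB2 to MT-ATP8 the BrM2 value was the lowest of its replicate number, while SDHB and COX4I1 in BrM2 were the highest of theirs.

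The differences of nuclear subunits ran in part along with those of the genes that lie near them. For 74 nuclear subunits other than COX7B2 with at least 10 other tested genes within 5 Mb (a window chosen after values were seen), the log2 fold change with the block correlated with the median of those neighbours, at a Spearman of 0.36 in LM2 against Par, 0.52 in BrM2 against Par and 0.58 in BrM2 against LM2 (Pearson 0.44, 0.62 and 0.65). These are descriptions: some subunits share neighbours, and all share the same 9 libraries. Around NDUFB11 on chromosome X, the 56 neighbours had a median of -0.90 in BrM2 against Par. Of them 47 passed as lower, where 23.2% of all genes tested did. Around NDUFB2 on chromosome 7 the median of 37 neighbours was -0.77 and 30 passed as lower, and around NDUFA8 on chromosome 9 the median of 47 was -0.54 and 30 passed as lower. Around NDUFC2 on chromosome 11 the median of 51 was -0.45 and 32 passed as lower, against the same 23.2% of all genes.

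Subunits that were higher had the reverse. Around COX4I1 on chromosome 16, the 65 neighbours had a median of 0.58 in BrM2 against Par. Of them 43 passed as higher, where 19.5% of all genes did. Around CYC1 on chromosome 8 the median of 68 neighbours was 0.31 in BrM2 against Par, and 15 passed as higher, near the 19.5% of all genes. Against LM2 the median was 0.73 and 49 passed as higher, where 17.8% of all genes did. In LM2 against Par these neighbours had a median of -0.51, with 1 passing as higher and 27 as lower, while CYC1 was at 0.02. Of all genes 15.5% passed as higher and 19.1% as lower there. Around COX5A on chromosome 15 the 66 neighbours had 0.40 in LM2 against Par, with 33 passing as higher, where 15.5% of all genes did. Not all subunits followed: SDHB and UQCRC2 rose by 0.59 and 0.49 in BrM2 beside neighbour medians of 0.09 and 0.05, and COX5B fell by 0.86 in LM2 beside 0.00. COX7B2, at 6.24 in BrM2 against Par, had 19 neighbours with a median of -0.37. Of them 0 passed as higher and 8 as lower, against 19.5% and 23.2% of all genes.

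**Figure D5:**
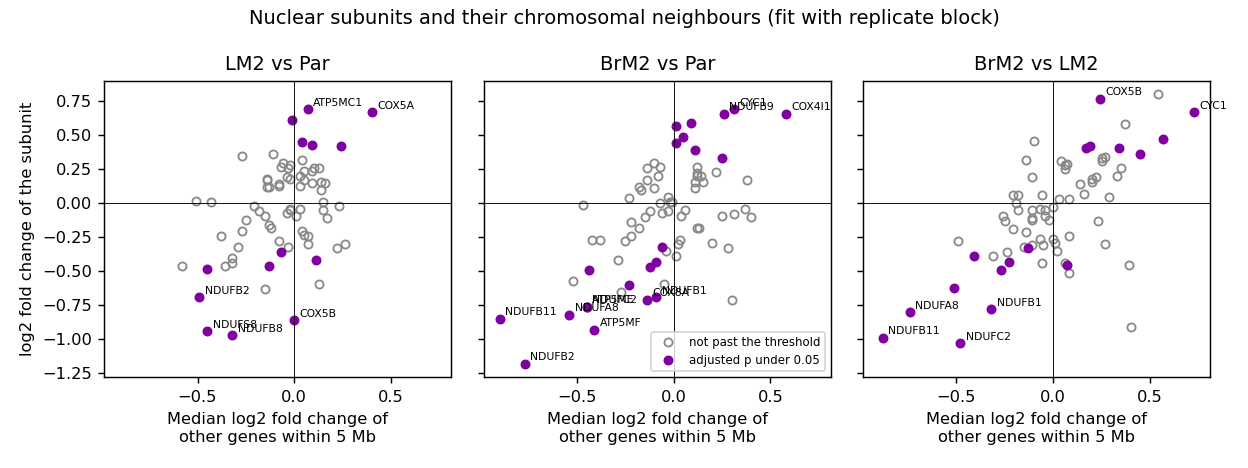
Log2 fold change of each of 74 nuclear subunits (y axis) against the median log2 fold change of other tested genes within 5 Mb (x axis), with the replicate block, for the 3 comparisons; filled points passed at an adjusted p under 0.05. Points run from NDUFB11 and NDUFB2 at the lower left to COX4I1 and CYC1 at the upper right in BrM2 against Par; COX7B2 is not drawn.

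Subunits whose transcripts overlap other genes had low counts. The 7 nuclear subunits whose transcript is overlapped by another gene on the same strand over at least 60% (ATP5PO, NDUFA7, NDUFA11, NDUFA13, NDUFB8, NDUFV2 and SDHA) had a median of 43.7 reads per library (8.56 to 140), against 1160 for the 73 with less than 20% overlap. The overlap was measured in a GRCh37 annotation, not in the one used for counting. Its part in the low counts was not tested. NDUFA7 did not pass the filter, nor did NDUFS7, which is overlapped on the opposite strand over 51.3% of its transcript.

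Genes that act on the complexes were examined by lists. Of 17 complex I assembly factors tested, 3 were higher and 3 lower in BrM2 than in Par with the block, where 19.5% of all genes passed as higher and 23.2% as lower, and TMEM126A (-0.92, adjusted p = 0.027) passed without it. TMEM126A went from 31.7 ± 1.59 CPM in Par to 16.8 ± 3.06 in BrM2, and its relative TMEM126B was lower with the block (-0.62 ± 0.12, adjusted p = 0.0022). NDUFAF4 was higher (0.73 ± 0.14, adjusted p = 0.0020) and NDUFAF3 lower (-0.74 ± 0.14, adjusted p = 0.0016) with the block. Of 10 assembly factors of complexes II and III, BCS1L, which inserts the Rieske protein, was higher in BrM2 without the block (0.85, adjusted p = 0.029) and SDHAF4 was lower in both sub-populations with it (-1.07 and -0.95, adjusted p = 0.0011 and 0.0018).

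Of 21 complex IV assembly factors tested, 5 were higher and 4 lower in BrM2 than in Par with the block, near the 19.5% and 23.2% of all genes. Without the block 0 passed, where 13.3% of all genes did. COA7 was higher (0.83 ± 0.12, adjusted p = 0.00032), and COA4 (-0.87 ± 0.16, adjusted p = 0.0015), SURF1 (-0.71 ± 0.15, adjusted p = 0.0036) and COX14 (-0.67 ± 0.16, adjusted p = 0.0055) were lower. None of 3 complex V assembly factors tested passed in either fit. Of 18 genes for ubiquinone synthesis and cytochrome c, PDSS1, which makes the side chain of ubiquinone, was higher in both sub-populations without the block (0.84 in LM2 and 1.11 in BrM2, adjusted p = 0.015 and 0.0027), at 13.8 ± 0.719 CPM in Par, 24.7 ± 0.268 in LM2 and 29.7 ± 2.23 in BrM2. HCCS, which attaches haem to cytochromes c and c1, was lower in BrM2 (-0.77, adjusted p = 0.023), and ETFA was higher in LM2 (0.59, adjusted p = 0.034).

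Of 19 genes for transcription and replication of mitochondrial DNA, 5 were higher and 2 lower in BrM2 than in Par with the block, against 19.5% and 23.2% of all genes. TWNK, the replicative helicase, went from 40.2 ± 6.80 CPM in Par to 47.2 ± 9.79 in LM2 and 81.8 ± 4.99 in BrM2 (1.03, adjusted p = 0.013 without the block), and TOP1MT, the mitochondrial topoisomerase, was higher in BrM2 than in LM2 (1.11, adjusted p = 0.020). POLG, the DNA polymerase, was lower in BrM2 than in LM2 with the block (-0.75 ± 0.13, adjusted p = 0.0015). Of 14 regulators of mitochondrial biogenesis tested, PPARGC1B, a coactivator, was higher in both sub-populations without the block (1.22 in LM2 and 1.14 in BrM2, adjusted p = 0.0098 and 0.010), at 4.58 ± 0.986 CPM in Par, 10.7 ± 1.02 in LM2 and 10.1 ± 0.643 in BrM2. With the block, 3 of the 14 were higher and 0 lower in BrM2 than in Par, against 19.5% and 23.2% of all genes. PPRC1 (0.66 ± 0.12, adjusted p = 0.0012) and MYC (0.63 ± 0.14, adjusted p = 0.0045) were among them. In LM2 against Par 2 were higher and 2 lower (ESRRA and PPARA), against 15.5% and 19.1% of all genes. PPARA was higher in BrM2 than in LM2 without the block (1.05, adjusted p = 0.028). With the block it was lower in LM2 than in Par (-0.84 ± 0.14, adjusted p = 0.0011), and BrM2 did not differ from Par (0.23 ± 0.14, adjusted p = 0.21).

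Of 19 genes of the tricarboxylic acid cycle, IDH2, the mitochondrial NADP-dependent isocitrate dehydrogenase, was lower in BrM2 than in LM2 without the block (-1.70, adjusted p = 0.038), at 77.3 ± 43.7 CPM in LM2 and 23.8 ± 8.59 in BrM2. With the block 3 of the 19 were higher and 2 lower in BrM2 than in Par, where 19.5% of all genes passed as higher and 23.2% as lower. SUCLG1 (0.93 ± 0.14, adjusted p = 0.00045) and IDH3B (0.69 ± 0.13, adjusted p = 0.0012) were among the higher, and IDH2 (-0.83 ± 0.19, adjusted p = 0.0053) among the lower. Among 10 tested carriers, uncoupling proteins and porins, 0 passed without the block in LM2 against Par, BrM2 against Par or BrM2 against LM2. Of all genes 8.69%, 13.3% and 8.1% did. With the block 5 passed in LM2 against Par (3 higher, 2 lower) and 5 in BrM2 against Par (2 higher, 3 lower), where 34.5% and 42.7% of all genes passed. Against Par, UCP2 (-1.31 ± 0.12 in BrM2, adjusted p = 1.1e-05) and the adenine nucleotide carrier SLC25A6 (-1.82 ± 0.28 in LM2 and -1.60 ± 0.28 in BrM2, adjusted p = 0.00056 and 0.00098) were lower with the block. SLC25A5, a paralog of SLC25A6, was higher in LM2 (0.69 ± 0.11, adjusted p = 0.00092).

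Of 75 mitochondrial ribosomal proteins tested, which translate the 13 mRNAs, 21 were higher and 4 lower in BrM2 than in Par with the block, at a median of 0.22, where 19.5% of all genes passed as higher and 23.2% as lower. MRPS30 was higher in both sub-populations without the block (0.69 in each, adjusted p = 0.042 and 0.030), MRPL35 (0.89, adjusted p = 0.032) and MRPS5 (0.55, adjusted p = 0.047) were higher in BrM2, and MRPS33 was lower (-0.69, adjusted p = 0.032). Of 81 cytosolic ribosomal proteins, 9 were higher and 10 lower in the same comparison, at a median of 0.11. Of 8 nuclear copies of mitochondrial genes that were tested, 0 were higher and 1 lower (MTATP6P1, -0.46 ± 0.14, adjusted p = 0.024), and the level of such a copy cannot be told apart from that of its mitochondrial source.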

How the data were processed

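RNA was sequenced from 9 libraries, 3 lines with 3 libraries each. The authors deposited 1 table of read counts per gene, made per the methods with STAR (2.7.0) on hg38 after CASAVA (1.8.2). The counting settings and strand are not given in the sources used here, and the authors' own DESeq2 comparison columns were not used. The members and gene lists were chosen with earlier results of these data known.

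The table had 58887 rows. The 3 repeated identifiers held identical counts under a second symbol and were kept once, leaving 58884 genes. The exclusion of symbols ending in P and digits was applied to nuclear symbols only, since it would drop MT-ATP6 and MT-ATP8. A Jaccard-based filter tried 100 thresholds from 1 to 200 on the largest normalised count and kept 13055 genes above 47.15 (mean Jaccard index 0.943). Counts were tested in edgeR (4.0.16, R 4.3.3) with TMM scaling and the quasi-likelihood test, all lines in 1 fit, with Benjamini-Hochberg adjustment over the 13055 genes at 0.05. CPM used the TMM library sizes. The SE of an edgeR log2 fold change was derived as its absolute value divided by the square root of the test's F statistic. The quasi-likelihood test itself gives no SE. DESeq2 (1.42.0), other scalings and filters, and fits that left out libraries were alternatives.

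Replicate numbers come from the labels. Libraries of the same number deviated together in all 9 pairs of libraries that share a number (correlation 0.23 to 0.898), so the fit with the number as a block is printed where it changes a call or count. On simulated counts for BrM2 against Par over 13055 genes, the fit without the block recovered 0% of 100 genes changed by 2-fold and 57% of 100 changed by 4-fold, calling 0 unchanged genes. The fit with the block recovered 97% and 100%, calling 13 unchanged genes. The simulated counts held a replicate effect that was the same in all lines and the spread of the fit with the block (common dispersion 0.021). They were thus built in the form that this fit assumes, and cannot tell which fit suits the measured libraries.

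A count of 3 per library served as the floor, which covers counting error only. Named were the 13 mitochondrial genes, all members past the threshold without the block, fixed paralog pairs, the 3 largest rises and falls per comparison with the block, SDHA to SDHD, and at most 4 genes of each other list. Other members named were chosen after their values were seen, and so was the 5 Mb window for neighbours. Promoters and positions came from RefSeq on GRCh38.p14, matched by symbol. Overlaps, lengths and shared 50-base stretches came from a GRCh37 annotation, used for no coordinates.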

Additional observations from a re-analysis of the deposited data

Results flagged for a closer look

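For 4 subunits the sub-populations differed from each other when that difference was tested (BrM2 against LM2, edgeR's quasi-likelihood test without the block). COX7B2, the testis-known paralog of a complex IV subunit, had a fitted log2 fold change of 8.94, which depends on the prior count because LM2 was at the floor. NDUFC2, an accessory subunit of complex I, had -1.04. The mitochondrial core subunits MT-ND5 and MT-ND6 had -0.87 and -0.86.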

How the results depend on the processing

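The replicate block moved the counts of subunits past the threshold most, from 1, 1 and 4 to 20 (LM2 against Par), 29 (BrM2 against Par) and 27 (BrM2 against LM2). With RLE size factors and the block they were 21, 27 and 28, and with mitochondrial genes left out of library sizes and the block 20, 29 and 27. DESeq2 gave 3, 6 and 6, DESeq2 with the block 20, 30 and 30, and the fit without a filter on low counts gave 2 in BrM2 against Par. Over the fits that left out a library or a replicate number, with and without the block, the counts ran from 0 to 25, from 1 to 33 and from 1 to 44. The highest counts without the block, 17, 25 and 21, came without replicate 1, and the cause was not tested.

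The median of the 13 mitochondrial genes ran from -0.11 to 0.50 in LM2 against Par, from -0.41 to -0.08 in BrM2 against Par and from -0.79 to -0.10 in BrM2 against LM2 over the same fits. The mitochondrial share of counts ran from 4.82% to 5.54% in Par, from 4.75% to 6.29% in LM2 and from 4.17% to 4.74% in BrM2. Without Par replicate 1 and without the block, 3 subunits reached or crossed 0, ATP5MF in LM2 against Par (-0.97 to 0.07 over the fits), and UQCRQ (-0.89 to 0.0) and COX8A (-1.51 to 0.14) in BrM2 against Par. A fit without Par replicate 1 alone keeps replicate 1 of the other lines. Within replicate numbers 1, 2 and 3, BrM2 was below Par for UQCRQ (log2 differences -0.33, -0.36 and -0.61) and COX8A (-0.64, -0.36 and -1.19).

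Single libraries also decided calls made without the block, while with the block the calls given here passed in each of 12 further fits. None of those 12 left out a whole replicate number. In BrM2 against LM2, NDUFC2 was lost without LM2 replicate 3 (adjusted p = 0.059), BrM2 replicate 2 (0.089) or BrM2 replicate 3 (0.11). MT-ND5 was lost without LM2 replicate 2 (0.064) or BrM2 replicate 1, 2 or 3 (0.057, 0.094 and 0.099), and MT-ND6 without LM2 replicate 2 (0.062), BrM2 replicate 2 (0.094) or BrM2 replicate 3 (0.11), and also without the filter (0.058). COX7B2 in LM2 against Par was lost without Par replicate 1 or 2 (0.10 and 0.11), LM2 replicate 2 or 3 (0.083 and 0.12), or BrM2 replicate 2 or 3 (0.061 each). Depth limits the subunits with few reads, among them NDUFB8, ATP5ME and COX7B2 outside BrM2.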
